A study of Homo sapiens and Mus musculus with 12 samples.

Results

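LSD1 (KDM1A) is a histone demethylase of the CoREST complex, which holds the histone deacetylases HDAC1 and HDAC2 and is brought to DNA by other proteins. GFI1, a zinc finger repressor of blood cells, is one of the factors that bind LSD1 through their SNAG domain. LSD1 also sits at enhancers, the distal elements from which transcription factors act on promoters, where it can remove methyl groups from H3K4. In erythroid cells such elements are often bound by GATA factors together with TAL1 and its partner LMO2.

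The regions described here are the LSD1 peaks of K562 cells that lay between genes and had no GFI1 peak. They were selected on the measured peak calls. A region was taken when its LSD1 summit was over 1000 bp from every protein-coding transcript start of GENCODE release 44, lay outside every gene body of GRCh38, and shared no base with a GFI1 peak of the same cells. This rule gave 1566 regions, or 23.9% of the 6548 LSD1 peaks. Of the other LSD1 peaks, 108 were intergenic with GFI1, 2989 lay in gene bodies without GFI1, 1603 lay at promoters without GFI1, 235 lay in gene bodies with GFI1 and 47 at promoters with GFI1. Since the rule used the LSD1 and GFI1 calls, the LSD1 strength of these regions is given as a description with no test, and their lack of GFI1 is no result.

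K562 is a human leukemia line with erythroid features. The cells stably expressed Cas9. In sg-NT cells the sgRNA had no target, and in sg-LSD1 cells it was directed at the LSD1 gene and was the second of 2 tried. The authors report a strong decrease of LSD1 protein by western blot with either sgRNA. The loss of LSD1 in sg-LSD1 cells was not checked here, since the lists used hold no LSD1 ChIP of these cells. ChIP-seq was done for LSD1 and for GFI1 in sg-NT cells, for GFI1 in sg-LSD1 cells, and for GFI1 and SPI1 in THP1 cells, a human monocytic leukemia line. With a single library for each condition, there is no check by replicates, and p-values across peaks were not calculated. The intervals given below are 95% intervals that cover counting error only.

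Each peak has a fold, which is its pileup of fragments over the local background, and a −log10 p. The fragments over each summit were solved from these 2 values. The regions had a median of 13 fragments (6 to 52), so the data are shallow and weaker sites are below the calling threshold. In particular, a region without a GFI1 peak can have GFI1 coverage under that threshold, which peak lists do not show. In sg-NT cells GFI1 had 498 peaks, and these overlapped 5.96% of all LSD1 peaks.

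The reference sequences of a few of these regions show what lay under their summits. The following windows of 100 bases of GRCh38 are centred on the LSD1 summits. NCLN, PLIN3, LHX2, AP1M1 and LMO2 name the protein-coding gene whose start is nearest to 5 of the 10 strongest regions, and ASIC1 names one of the regions with a GATA core joined to an E-box part. TMPO and ANTXR2 name regions that met a GFI1 peak in THP1 and in sg-LSD1 K562 cells. Capitals mark the letters of the motif cores named further on, on either strand.
NCLN (chr19:3184212-3184311, + strand): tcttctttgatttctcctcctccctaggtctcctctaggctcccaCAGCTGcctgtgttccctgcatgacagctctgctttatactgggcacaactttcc
PLIN3 (chr19:4870181-4870280, + strand): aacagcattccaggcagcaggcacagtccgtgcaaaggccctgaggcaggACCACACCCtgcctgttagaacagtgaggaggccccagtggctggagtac
LHX2 (chr9:124054908-124055007, + strand): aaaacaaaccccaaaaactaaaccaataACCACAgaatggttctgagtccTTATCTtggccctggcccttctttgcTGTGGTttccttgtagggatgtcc
AP1M1 (chr19:16260318-16260417, + strand): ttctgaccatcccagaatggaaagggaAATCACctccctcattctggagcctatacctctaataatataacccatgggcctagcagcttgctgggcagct
LMO2 (chr11:33944950-33945049, + strand): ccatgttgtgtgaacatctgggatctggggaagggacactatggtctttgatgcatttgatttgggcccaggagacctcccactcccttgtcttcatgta
ASIC1 (chr12:50050832-50050931, + strand): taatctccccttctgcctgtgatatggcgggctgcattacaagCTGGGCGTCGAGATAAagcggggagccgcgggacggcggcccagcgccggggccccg
TMPO (chr12:98440212-98440311, + strand): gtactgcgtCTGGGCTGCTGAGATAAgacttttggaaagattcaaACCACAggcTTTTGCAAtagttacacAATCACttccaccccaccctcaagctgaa
ANTXR2 (chr4:80143433-80143532, + strand): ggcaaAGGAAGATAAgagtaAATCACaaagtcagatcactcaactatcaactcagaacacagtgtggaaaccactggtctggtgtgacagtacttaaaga

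The LHX2 window held the GATA core on the minus strand, as TTATCT, and the RUNX core on both strands. The LMO2 window held none of the 14 cores searched. The TMPO window held the GATA core with its E-box part, and also the RUNX, C/EBP and GFI1 cores within the same 100 bases. Of these, only the RUNX and C/EBP cores lay in the 50 bp at the summit that the core shares further on use.

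The regions were about as strong as LSD1 peaks without GFI1 inside genes, and weaker than the few intergenic LSD1 peaks that also had GFI1. Their median fold was 7.03 (interval 6.82 to 7.31, range 3.58 to 32.5) and their median −log10 p was 11.3 (5.02 to 80.5). LSD1 peaks in gene bodies without GFI1 had a median fold of 6.99 (interval 6.82 to 7.21), and those at promoters without GFI1 6.41 (interval 6.30 to 6.59). The 108 intergenic LSD1 peaks with GFI1 had a median fold of 11.5 (interval 10.9 to 13.5) and a median −log10 p of 25.4. They were also wider, with a median of 554.5 bp against 344 bp. The rule used the same LSD1 and GFI1 calls, so these differences were not tested. Of the strongest 100 LSD1 peaks, 11 were such regions, while the regions made up 23.9% of all LSD1 peaks. The strongest region had rank 21 of all.

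**Figure D1:**
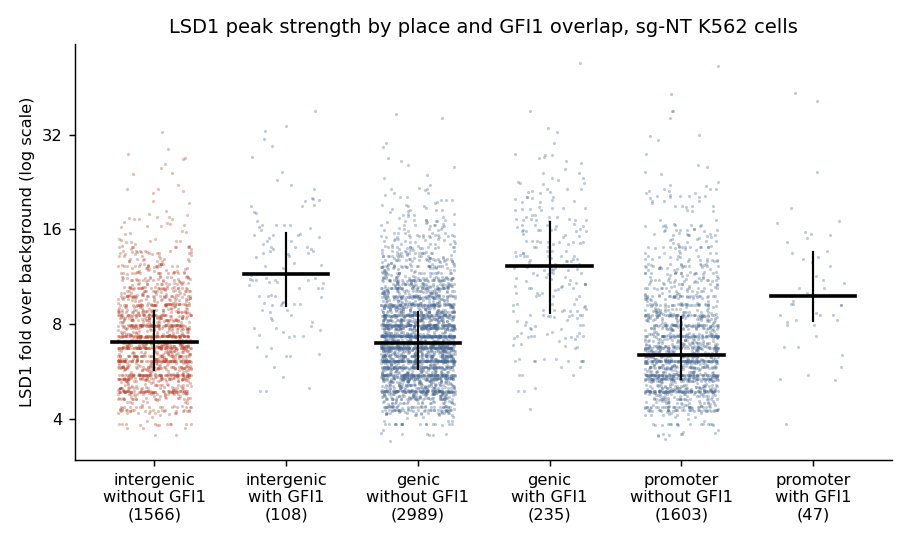
LSD1 fold over background (log scale) of each of the 6548 LSD1 peaks of sg-NT K562 cells, split by place and by overlap with a GFI1 peak, with the number of peaks in brackets. Thick lines are medians and thin lines span the lower to the upper quartile. The 1566 intergenic peaks without GFI1 (red) have a median of 7.03, against 11.5 for the 108 with GFI1.

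The strongest region lay 1301 bp upstream of NCLN on chromosome 19, from 3183808 to 3185208. NCLN encodes nicalin, a membrane protein of the endoplasmic reticulum. The fold of the region was 32.5 and its −log10 p 80.5, with 52 fragments over the summit. The region 30908 bp upstream of VEGFA, which encodes a growth factor of blood vessels, had a fold of 26.8 (−log10 p 69.6). The one 29737 bp upstream of TCF3, the E protein that pairs with TAL1, had a fold of 28.7 (−log10 p 68.9). MDFI, an inhibitor of MyoD family factors, was nearest to a region 33389 bp upstream of its start with a fold of 27.8. All these were among the 50 strongest LSD1 peaks of the list, with ranks 21, 34, 36 and 37.

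The remaining regions among the 10 strongest lay near PLIN3, LHX2, CWC15, AP1M1, APLP2 and LMO2, with folds of 24.2, 27.0, 25.1, 25.8, 23.9 and 21.4. PLIN3 coats lipid droplets, LHX2 is a LIM homeobox factor, CWC15 is a part of the spliceosome and AP1M1 is a subunit of a clathrin adaptor. The PLIN3 region was 2537 bp upstream of its start and the APLP2 region 4554 bp upstream. The LHX2, CWC15 and AP1M1 regions were 39561, 25418 and 32763 bp downstream of their starts, beyond the end of the gene. Nearness is a property of the map here, and no data on the expression of these genes were used.

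Most regions lay within 100000 bp of a protein-coding start, and more lay upstream than downstream of it. Their median distance to the nearest protein-coding start was 21207.5 bp (interval 19225 to 23813). Of the 1566 regions, 289 (18.5%) lay at most 5000 bp from a start, 475 (30.3%) at 5000 to 20000 bp, 351 (22.4%) at 20000 to 50000 bp and 208 (13.3%) at 50000 to 100000 bp. A further 195 lay at up to 500000 bp and 48 beyond that. The summit was upstream of the nearest start in 1047 regions (66.9%, interval 64.5 to 69.1). The rule leaves out gene bodies, which lie downstream of their starts, so it shapes this share. A start of any annotated transcript, noncoding ones included, lay within 1000 bp of 121 summits (7.73%).

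**Figure D2:**
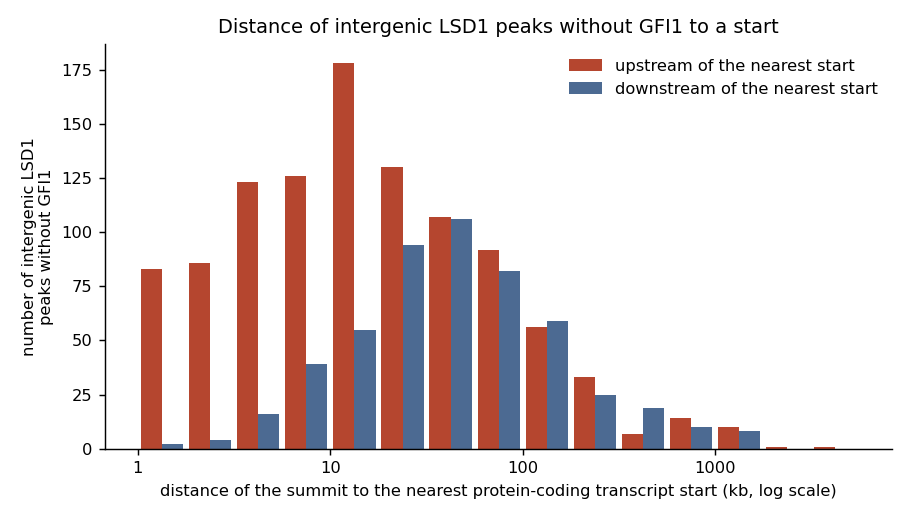
Number of intergenic LSD1 peaks without GFI1 by the distance of the summit to the nearest protein-coding transcript start (kb, log scale), upstream (red) and downstream (blue) of that start. The 1047 upstream summits prevail at short distances, where gene bodies on the downstream side are left out by the rule.

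At the limit of 1000 bp set by the rule, the 3 regions just inside had their summits 1001, 1009 and 1014 bp upstream of TTLL1, SNRNP27 and SLC25A42. Their folds were 8.59, 7.99 and 7.92. The 3 peaks just outside lay 983, 974 and 972 bp upstream of COLGALT1, GLIS2 and FAM162B, with folds of 4.34, 4.51 and 6.82. At the other end, the region farthest from a protein-coding start was on chromosome 22, 3563999 bp from OR11H1, with a fold of 5.52. The next were 2030491 bp from NUDT12 on chromosome 5 and 1606576 bp from SLITRK1 on chromosome 13, with folds of 4.65 and 5.52. These 3 remote regions had 8, 11 and 8 fragments over the summit. The weakest regions by −log10 p had a value of 5.02, next to the authors' threshold.

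Per length of intergenic sequence, the regions were densest on chromosome 19. Intergenic sequence, by the same limits, made up 38.9% of the known bases of chromosomes 1 to 22 and X, and 25.6% of the LSD1 summits (1674 of 6548) lay in it. The regions had a density of 1.38 per Mb of intergenic sequence in all. Chromosome 19, which is rich in genes, had 152 regions (8.49 per Mb), chromosome 22 had 3.25 per Mb and chromosome 1 had 2.82 per Mb. The X chromosome had 7 regions (0.0839 per Mb). LSD1 peaks of all kinds were also densest on chromosome 19 (12.8 per Mb of known bases) and sparse on X (0.155 per Mb), so the regions followed the order of the whole list there. The part that chromosome copy number plays in this was not tested.

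Many regions lay in groups. Another LSD1 summit lay within 12.5 kb of 569 regions (36.3%, interval 34.0 to 38.7), while the share over all LSD1 peaks was 32.8%. Counting only the regions themselves, 414 (26.4%) fell into 175 runs with at most 12.5 kb between neighbouring summits. Of the runs, 131 held 2 regions, 30 held 3, 9 held 4, 4 held 5 and 1 held 6.

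The run of 6 lay on chromosome 6 from 37029640 to 37054911, 24188 to 49125 bp from the start of FGD2, which encodes an exchange factor for CDC42. Its folds ranged from 6.20 to 17.3 with a median of 10.6, and 1 of the 6 summits had a GATA core. A run of 5 covered 9314 bp of chromosome 12 from 124737272 to 124746585, with folds of 5.36 to 16.5. Its nearest gene was SCARB1, a receptor for high density lipoprotein, 71305 to 80321 bp away. The other runs of 5 lay near ANXA3 on chromosome 4 (folds 5.81 to 13.1), SEMA6B on chromosome 19 (4.26 to 13.6) and the histone gene H2BC13 on chromosome 6 (4.76 to 7.93). All LSD1 peaks in the span of these 5 runs were regions of the set, and none had GFI1. By nearest gene, NTMT1, an N-terminal methyltransferase, had the most regions, 9, from 1667 to 202658 bp from its start.

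The regions were nearest to 1176 of 19676 protein-coding genes (5.98%). This share is the background for the gene lists below, and long stretches without genes around a locus raise a gene's chance to be the nearest. Of 25 erythroid and stem cell factors, 9 (36%) were the nearest gene of a region, and of 18 myeloid genes and 18 leukemia oncogenes and survival genes, 4 each (22.2%). Of 35 globin, heme and red cell genes, 5 were (14.3%), and of 19 genes of the LSD1-CoREST complex and its recruiters, 2 (10.5%). The lists were written with earlier results of these data known, so these counts are descriptions.

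Among the erythroid and stem cell factors were LMO2, GATA2, GFI1, GFI1B, HHEX, IKZF1, STAT5A, SOX6 and CBFA2T3. LMO2, the bridging protein between TAL1 and GATA factors, had 2 regions, 52924 and 65422 bp upstream of the nearest start, with folds of 21.4 and 9.07 and with 43 and 15 fragments. The region of GATA2, a GATA factor of stem cells, lay 40043 bp upstream on chromosome 3 from 128533117 to 128533405 and had a fold of 10.8. Both genes encode parts of the complexes that bind GATA and E-box letters.

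The genes of GFI1 and of its paralog GFI1B, the erythroid member of the family, each had regions downstream of them. The GFI1 region lay 33763 bp downstream of the start at 92446534 to 92446916 of chromosome 1, and its fold was 11.7 with 18 fragments. Those of GFI1B lay 6284 and 12661 bp downstream with folds of 7.91 and 7.82. HHEX, a homeobox repressor, had regions 1132 bp upstream and 64355 bp downstream with folds of 7.98 and 9.56. The distal HHEX region also met a GFI1 peak of THP1 cells (fold 6.06). The single regions of IKZF1, STAT5A, SOX6 and CBFA2T3 had folds of 8.38, 6.59, 6.72 and 4.67.

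Among the red cell genes, EPB41, which encodes protein 4.1 of the red cell membrane, had the strongest region. It lay 3074 bp upstream with a fold of 16.4 and 26 fragments. SLC25A37, the mitochondrial iron carrier mitoferrin, had a region 1064 bp upstream with a fold of 9.70. RHAG had 1 region with a fold of 7.15 and the transferrin receptor gene TFRC 1 with a fold of 6.75. The globin genes of this list were the nearest gene of no region.

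Of the myeloid genes, CSF3R, the receptor of granulocyte colony-stimulating factor, had 3 regions at 3294, 6191 and 9485 bp upstream of its start on chromosome 1. Their folds were 19.4, 7.03 and 6.87, with 33, 15 and 12 fragments. KLF4, a zinc finger factor of monocytes, had 4 regions from 294130 to 666546 bp upstream with folds of 5.74 to 9.55. CEBPB had a region 101653 bp downstream with a fold of 8.14 and AZU1, a granule protein gene, one 4383 bp downstream with a fold of 8.77.

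Of the oncogenes, KIT, the receptor of stem cell factor, had 5 regions that lay 85775 to 174583 bp upstream of its start on chromosome 4. The strongest had a fold of 11.2 and 22 fragments, and the others had folds of 7.53 to 8.98. PIM1, a survival kinase, had 3 regions with folds of 7.36, 8.89 and 9.70, 2 of them downstream and 1 upstream. BCR, one side of the BCR-ABL1 fusion of K562 cells, had 1 region 6676 bp upstream with a fold of 4.08. It had 27 fragments over a local background of 5.86, against a median background of 0.892 over the regions. CCND2 had 1 region 116021 bp upstream with a fold of 6.75.

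Of the LSD1-CoREST list, ZNF217, a zinc finger partner of CoREST, had 2 regions 29441 and 77545 bp upstream with folds of 9.20 and 7.36. REST, the repressor of neuronal genes that recruits CoREST, had 1 region 16844 bp upstream with a fold of 6.75.

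The letters at the summits were searched next. Cores of 14 kinds of factors were counted in 50 bp centred on the summit, on both strands, and in windows 2000 bp to either side of it. The GATA core AGATAA stood out. It was in 138 regions (8.81%, interval 7.51 to 10.3), while it was in 2.49% of the windows 2000 bp away and in 7.76% of all LSD1 summits. A composite of CTG, a gap of 7 or 8 bases and AGATAA, the form bound by TAL1 and GATA factors together, was in 25 regions (1.60%) and in 1 of the 3132 flanking windows (0.0319%). Over all LSD1 summits the composite had a share of 1.39%. Its members are also counted under the GATA core. The regions thus carried the 2 cores at about the share of the whole LSD1 list.

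LSD1 summits in gene bodies without GFI1 had the GATA core in 8.97% (interval 7.99 to 10.0) and promoter summits without GFI1 in 3.06% (interval 2.32 to 4.02). The intergenic LSD1 peaks with GFI1 had it in 16 of 108 (14.8%, interval 9.33 to 22.7). In bins of 50 bp, the GATA core was most frequent in the bin just left of the summit (9.51%) and in the 2 bins right of it (9.26% and 9.004%), and it lay between 2.11% and 3.58% in bins over 300 bp away.

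The GFI1 core AATCAC was no more frequent at these summits than beside them. It was in 39 regions (2.49%, interval 1.83 to 3.39), in 2.08% of the flanking windows and in 2.47% of all LSD1 summits. In the 108 intergenic LSD1 peaks that had GFI1, it was in 8 (7.41%, interval 3.80 to 13.9) and in 2.31% of their flanks (interval 0.993 to 5.30). These 2 intervals overlapped.

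RUNX factors and E proteins had cores with smaller gains. The RUNX core TGTGGT was in 6.45% of the regions against 3.93% of the flanks and 5.7% of all LSD1 summits. The E-box CAGCTG was in 4.47% against 2.52% of the flanks and 4.22% of all. The AP-1 core TGANTCA was in 2.68% against 1.56% of the flanks and 2.23% of all, and the C/EBP core TTGCNNAA was in 3.45% against 2.11% and 2.35%. The intervals of regions and flanks did not overlap for the GATA, RUNX and E-box cores, and they overlapped for AP-1 and C/EBP.

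The intervals of the other cores overlapped those of the flanks. The ETS core AGGAAG was in 6.45% against 4.89% of the flanks and 5.8% of all LSD1 summits. The NF-E2 core GCTGAGTCA was in 0.192% (0.128% of the flanks, 0.153% of all), the KLF core CCACACCC in 0.958% (0.830%, 0.764%), the STAT core TTCNNNGAA in 1.09% (1.28%, 1.22%) and the CTCF letters in 0.383% (0.351%, 0.748%). The SNAI E-box CACCTG was in 4.53%, against 5.87% of the flanks and 4.35% of all LSD1 summits. The pair of REST letter blocks was in 0 of 1566 regions, which allows a share of up to 0.192%, and in 0% of all LSD1 summits. At least 1 of the 14 cores was in 548 regions (34.99%), in 31.4% of all LSD1 summits and in 32.4% of those in gene bodies without GFI1.

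**Figure D3:**
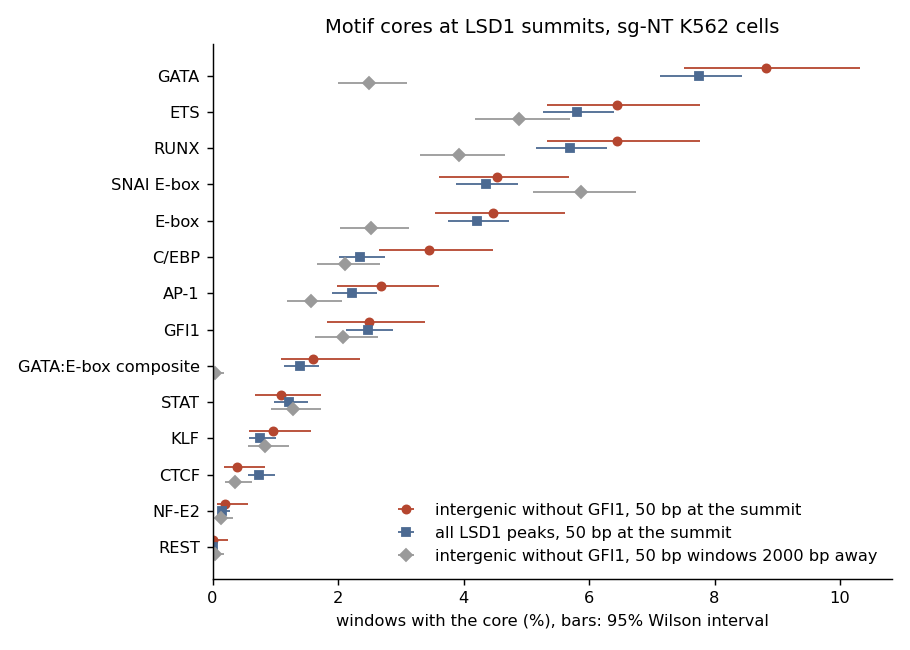
Share of windows with each motif core (%), with 95% Wilson intervals, for 50 bp at the summits of the 1566 intergenic LSD1 peaks without GFI1 (red), for all 6548 LSD1 summits (blue) and for windows 2000 bp from the red summits (grey). The GATA core is at 8.81% at the red summits and at 2.49% beside them.

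The GATA core was more frequent in stronger and in more distant regions. With the regions ordered by −log10 p in 4 groups of 391 or 392, its shares were 6.12%, 8.18%, 8.95% and 12.0% (interval 9.14 to 15.6) from the weakest to the strongest. From the nearest to the farthest from a protein-coding start, its shares were 5.19% of 289 regions at up to 5000 bp, 8.42% of 475 at up to 20000 bp, 8.94% of 559 at up to 100000 bp and 13.6% (interval 9.84 to 18.5) of the 243 beyond that. The median fold of these 4 groups was 7.14, 7.06, 7.05 and 6.82, so the median fold did not rise with distance. Median GC fell from 50.5% in the nearest to 45.5% in the farthest group, and its part in the GATA shares was not tested. The composite did not rise steadily in either order. Its shares were 1.02%, 1.79%, 2.56% and 1.02% by strength, and 0.346%, 2.11%, 1.79% and 1.65% by distance. The RUNX core also rose with strength, from 4.85% in the weakest to 8.93% in the strongest group, with intervals that overlapped.

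Most regions were poor in CG dinucleotides. In 200 bp at the summit the median GC was 49% (interval 48 to 49.5) and the median ratio of observed to expected CG was 0.223. Promoter LSD1 peaks without GFI1 had 58% and 0.656, and those in gene bodies 48.5% and 0.222.

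Apart from the cores, short words of 9 letters were searched without a list, as a step chosen after the data were seen. The word with the largest excess of regions over flanks was taken, the regions that held it were set aside, and the search was repeated for 8 rounds in 200 bp windows. The first word was GGAATACTA (or TAGTATTCC on the other strand), found in 117 regions (7.47%) and in 9 of 3132 flanking windows (0.287%). The next were CCCATTTTA, CTGTGTGAC and AAACTGAGG, in 6.45%, 4.09% and 5.94% of the regions and in 0.702%, 0.511% and 0.926% of the flanks. The fifth, CCTTTGCAC, was in 45 regions (2.87%) and in 5 flanking windows, and it is seen as gtgcaaagg in the PLIN3 window above. Rounds 6 to 8 gave words that hold GATAAG.

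The first word is known from L1, a family of long interspersed repeats, and the next 3 from MIR, an ancient family of short interspersed repeats. They are called the L1 word and the MIR words here. A word of 9 letters does not name a repeat copy, and no repeat annotation was used here. The windows below show them in 4 regions, with the words in capitals.
VEGFA (chr6:43739253-43739352, + strand): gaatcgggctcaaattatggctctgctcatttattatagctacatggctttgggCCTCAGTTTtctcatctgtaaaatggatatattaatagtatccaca
APLP2 (chr11:130063543-130063642, + strand): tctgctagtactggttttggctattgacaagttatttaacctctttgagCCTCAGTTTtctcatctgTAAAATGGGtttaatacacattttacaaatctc
MYEOV (chr11:69424859-69424958, + strand): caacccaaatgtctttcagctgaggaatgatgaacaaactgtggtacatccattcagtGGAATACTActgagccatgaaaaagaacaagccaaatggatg
FGD2 (chr6:37030763-37030862, + strand): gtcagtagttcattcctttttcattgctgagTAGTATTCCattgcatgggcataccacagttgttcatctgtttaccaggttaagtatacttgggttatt

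The VEGFA and APLP2 windows hold the same MIR word on this strand, CCTCAGTTT, and the APLP2 window holds a second, TAAAATGGG. These 2 regions were the second and the ninth strongest, with folds of 26.8 and 23.9. The MYEOV region lay 130751 bp downstream of its start with a fold of 17.5, and the FGD2 region, which belongs to the run of 6, lay 25158 bp downstream with a fold of 17.3.

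MIR words were in 209 regions (13.3%, interval 11.8 to 15.1) and in 2.11% of the flanks, and over all LSD1 summits their share was 12.2%. The L1 word had a share of 5.16% over all LSD1 summits. Because the words were ranked on the regions, their shares there are descriptions, but the other peaks and lists were not used to choose them. LSD1 peaks in gene bodies without GFI1 had a MIR word in 14.1% (interval 12.9 to 15.4, flanks 2.43%) and the L1 word in 7.16% (interval 6.29 to 8.14, flanks 0.151%). Promoter LSD1 peaks without GFI1 had a MIR word in 10.0% (flanks 2.25%) but the L1 word in only 5 of 1603 (0.312%, flanks 0.218%). So MIR words were frequent in all 3 places, and the L1 word away from promoters.

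LSD1 peaks with GFI1 did not show this. Of the 390 LSD1 peaks with GFI1 in all places, 9 held a MIR word (2.31%, interval 1.22 to 4.33, flanks 2.56%) and 2 the L1 word (0.513%, interval 0.141 to 1.85). The GFI1 peaks of sg-NT K562 cells held MIR words in 1.00% and the L1 word in 0.402%. In THP1 cells, MIR words were in 1.56% of the GFI1 and 1.52% of the SPI1 peaks. The L1 word was in 0 of 3461 THP1 GFI1 peaks, which allows up to 0.0867%, and in 1 SPI1 peak. The flanks of the THP1 GFI1 peaks held the L1 word in 0.318% (interval 0.210 to 0.481), with no overlap of the summit and flank intervals. In all these lists the shares at the summit were not above those of the flanks by more than their intervals. The lists come from libraries of differing depth and antibody with 1 library each, so antibody, library and GFI1 cannot be told apart as the source of this difference. The sources used here name no filter on mapping quality for reads from repeats, and its part was not tested.

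**Figure D4:**
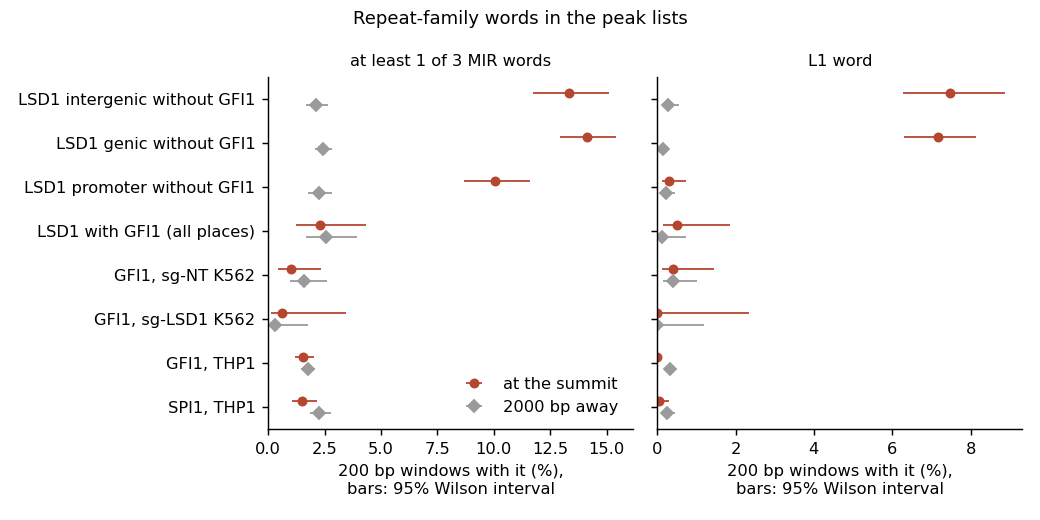
Share of 200 bp windows with at least 1 of the 3 MIR words (left) and with the L1 word (right), in percent with 95% Wilson intervals, at the summits of each list (red) and 2000 bp away (grey). MIR words reach 13.3% of intergenic and 14.1% of genic LSD1 summits without GFI1, and 10.0% of promoter summits without GFI1. In the lists with GFI1 or SPI1, neither kind of word is above its flanks by more than the intervals. At THP1 GFI1 peaks the L1 word is below its flanks.

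Within the windows used for the search, both kinds of words were most frequent next to the summit. In bins of 50 bp, MIR words were in 5.30% and 6.64% of the regions on the 2 sides of the summit and in 1.53% and 1.72% in the next bin on either side. The L1 word was in 3.13% and 2.75% beside the summit and in 0.639% and 1.09% in the next bins. The search used these windows, so the low shares beyond them follow in part from the choice of words. LSD1 peaks in gene bodies without GFI1, which were not used to choose the words, had MIR words in 6.02% and 6.59% beside the summit, in 1.47% and 1.97% in the next bins and in 1.24% and 1.00% in the bins after those. Their shares of the L1 word were 2.44% and 3.25%, then 0.569% and 0.937%, then 0.401% and 0.234%. In the intergenic regions the L1 word lay on the plus strand in 63 regions and on the minus strand in 54, on 19 chromosomes.

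**Figure D5:**
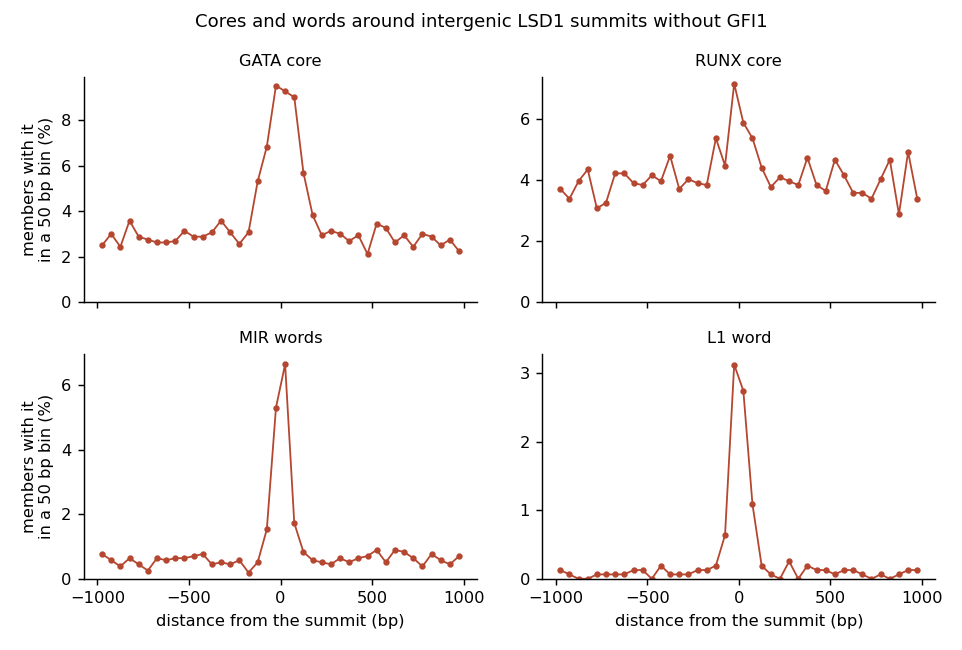
Share of the 1566 regions (%) with the GATA core, the RUNX core, a MIR word or the L1 word in each 50 bp bin, against the distance of the bin from the LSD1 summit (bp). The GATA core reaches 9.51% and the MIR words 6.64% next to the summit, and all 4 are lower beyond about 200 bp, where for the words the choice on 200 bp windows plays a part.

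The regions with MIR words had a higher median fold than those with neither word, and few regions with the L1 word held a GATA core. The 208 with only MIR words had a median fold of 8.07 (interval 7.43 to 8.59), the 116 with only the L1 word 7.34 (interval 6.52 to 7.87) and the 1241 with neither 6.82 (interval 6.75 to 7.03). The intervals of the L1 word and of neither overlapped. MIR words were in 23 of the 100 strongest regions and in 4 of the 10 strongest, those near VEGFA, MDFI, CWC15 and APLP2. The L1 word was in 6 of the 100 strongest. The GATA core was in 10.2% (interval 8.59 to 12.0) of the regions with neither word, in 4.81% (interval 2.63 to 8.62) of those with MIR words and in 2 of the 116 with the L1 word (1.72%, interval 0.474 to 6.07). The RUNX core was in 6.77%, 2.88% and 9.48% of them in that order, with intervals that overlapped those of the regions with neither word. The sets were made by letters at the summit, where the cores were also counted, so their core shares depend in part on that choice. GC was lowest in the regions with the L1 word, with a median of 39%. Local background, by which the fold is divided, was lower in the regions with MIR words, with a median of 0.765 fragments (interval 0.701 to 0.867), than in those with neither (0.892, interval 0.892 to 0.956), and its part in their higher fold was not tested. The regions with the L1 word had a median background of 0.867 fragments (interval 0.778 to 1.02).

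The regions were set beside the other peak lists, which the rule did not use. In THP1 cells, 42 of the 1566 (2.68%, interval 1.99 to 3.61) met a GFI1 peak, while 4.6% of all LSD1 peaks did and 16 of the 108 intergenic LSD1 peaks with GFI1 (14.8%, interval 9.33 to 22.7). The 42 made up 1.21% of the 3461 THP1 GFI1 peaks. LSD1 peaks in gene bodies without GFI1 had nearly the same share as the regions (2.71%, interval 2.19 to 3.36), and promoter peaks without GFI1 a higher one (6.86%, interval 5.72 to 8.21).

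The strongest of the 42 lay 75328 bp upstream of TMPO, at 98440100 to 98440525 of chromosome 12, with an LSD1 fold of 17.2. Its GFI1 peak in THP1 cells had a fold of 4.54. The next lay 9073 bp upstream of HNRNPF with a fold of 11.3 and 15620 bp upstream of BTG2, an antiproliferative gene, with a fold of 12.4. Their THP1 GFI1 folds were 8.08 and 7.27. The 42 had a median LSD1 fold of 7.95 (interval 7.36 to 9.20), against 6.99 in the other 1524. They held the GFI1 core in 4 (9.52%, interval 3.77 to 22.1) against 2.30% of the others, and the GATA core in 8 (19.0%, interval 9.98 to 33.3) against 8.53%. The intervals of these shares are wide because the 42 are few.

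SPI1, the ETS factor PU.1 of myeloid cells, had a THP1 peak at 10 regions (0.639%, interval 0.347 to 1.17), while 0.779% of all LSD1 peaks met one. The strongest lay 55111 bp upstream of NEK6 with an LSD1 fold of 11.2, where SPI1 had a fold of 15.9 and THP1 GFI1 of 7.93. The next 2 by strength lay 4051 bp upstream of LRRC25 (LSD1 fold 9.01, SPI1 fold 9.83) and 4406 bp upstream of TRIM69 (9.74 and 6.09). The NEK6 and TRIM69 regions thus met both THP1 lists.

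GFI1 of sg-LSD1 K562 cells, in which the LSD1 gene was targeted, had 160 peaks. They met 5 regions (0.319%, interval 0.136 to 0.745), while 1.08% of all LSD1 peaks and 12 of the 108 intergenic LSD1 peaks with GFI1 (11.1%) met one. The 5 were called for GFI1 in sg-LSD1 and not in sg-NT cells, and a peak called in one shallow library and not in another is not shown to differ between them.

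All 5 are given here. The region 26797 bp downstream of HNRNPLL had an LSD1 fold of 11.9 and a GFI1 fold of 5.35 in sg-LSD1 cells. That 28703 bp upstream of MAP3K14, the kinase NIK, had 12.2 and 5.77, and it also met a THP1 GFI1 peak with a fold of 6.36. The regions near ANTXR2 and ARRDC4 had LSD1 folds of 9.30 and 7.93 and GFI1 folds of 5.29 and 5.93. The region 37121 bp downstream of TENT5C had the lowest LSD1 fold, 6.20, and the highest GFI1 fold, 8.85. The ANTXR2 window printed above holds the GATA core and the GFI1 core, both outside the 50 bp at the summit in which cores were counted. The windows of 100 bases at HNRNPLL, MAP3K14, ARRDC4 and TENT5C held no GFI1 core.

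A GFI1 summit of sg-NT cells lay within 1000 bp of 4 regions, within 10000 bp of 42 (2.68%) and within 100000 bp of 212 (13.5%). The last 2 shares were 2.74% and 13.6% for LSD1 peaks in gene bodies without GFI1, and 8.29% and 18.1% for all LSD1 peaks, which include those that overlap GFI1. By the rule, none of the GFI1 peaks near a region shared a base with it, so the rule itself lowers these shares.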

How the data were processed

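ChIP-seq peak lists of 5 libraries were used, with 1 library for each condition (LSD1 and GFI1 in sg-NT K562 cells, GFI1 in sg-LSD1 K562 cells, GFI1 and SPI1 in THP1 cells). Groups were taken from the sample labels. The input libraries and the murine H3K4me1 libraries were not used here. Per the study's methods, read trimming used Trim Galore (0.6.1), alignment to GRCh38 used Bowtie2 (2.5.4) and duplicate removal used Picard (3.1.0). Peaks were called for single libraries by MACS2 (2.2.9.1, p below 1e-05), and blacklisted regions were taken out. Whether the input served as control and whether reads were filtered by mapping quality is not given in the sources used here. The deposited fold is a ratio of pileup to local background at the summit, computed by the authors. For the p-value and the q-value of each peak, the authors gave −log10 values. The score column in the deposited lists follows the −log10 p and was not used.

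Peak overlap was at least 1 bp, checked with bedtools 2.31.1. Starts are those of transcripts that GENCODE release 44 types as protein coding, in genes typed the same. MACS2 adds a pseudocount of 1 to pileup and background, so fold and −log10 p were solved for a whole number of fragments, which matched in 100% of LSD1 peaks within a relative tolerance of 0.0001 on −log10 p. The lowest background of the LSD1 list was 0.630 fragments. Read totals are not part of the lists used, so depth is known only through these fragments. Shares have Wilson intervals and medians have binomial order-statistic intervals. No tests were made.

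The regions, gene lists and cores were chosen with earlier results of these data known. Named regions are the 10 strongest by −log10 p, the 3 strongest at peaks of each THP1 list and all 5 at GFI1 peaks of sg-LSD1 cells, the 5 runs with most regions, the 3 farthest from a start, the 3 on either side of 1000 bp, regions at genes of the lists (up to 5 for each list, with the others named after their values were seen, and 1 gene not reported here), and for cores at 2 times the flank share or more the strongest 2 off chromosome 8. MYEOV and the printed FGD2 window were chosen for the word search, and NTMT1 was named for its number of regions, after their values were seen. Sequences were read from GRCh38. Methods were tested on simulated data with planted overlaps, cores, classes and fragments. Python 3.11.15, numpy 2.4.6, scipy 1.17.1, pandas 2.3.3, pysam 0.24.0 and matplotlib 3.10.9 were used.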

Additional observations from a re-analysis of the deposited data

How the results depend on the processing

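Over 14 alternatives, 2 of them added after the data were seen (marked as added), 119 of 143 recomputed values stayed within 1.5 times the count or within the interval of the value given above, and the number of regions did so under each alternative that applied to it. Limiting LSD1 peaks to a −log10 p of at least 8 moved the median fold to 7.76, the median −log10 p to 12.9 and the share with another LSD1 summit within 12.5 kb to 33.0%. With 5000 bp between summits in place of 12.5 kb that share was 22.03%. The median distance to a start was 26485.5 bp when only protein-coding gene bodies were left out, 30908 bp at over 5000 bp from starts and 18249 bp with the starts of every transcript of protein-coding genes (added). GFI1 peaks of THP1 cells were met by 3.70% of the regions when edges up to 500 bp apart counted. In 200 bp windows in place of 50 bp, the cores were in 28.9% (GATA), 6.45% (composite), 9.96% (GFI1), 19.5% (RUNX), 22.1% (ETS), 10.3% (AP-1), 0.766% (NF-E2), 3.32% (KLF), 14.3% (E-box), 16.9% (SNAI E-box), 5.43% (STAT), 10.8% (C/EBP) and 1.92% (CTCF) of the regions, a rise that the longer window brings about. In the flanking 200 bp windows GATA was in 10.95%, the composite in 0.415%, GFI1 in 9.04%, RUNX in 15.4%, ETS in 18.9%, AP-1 in 6.51%, NF-E2 in 0.511%, KLF in 3.19%, the E-box in 9.67%, the SNAI E-box in 22.4%, STAT in 5.52%, C/EBP in 8.84% and CTCF in 1.56%. At this length the intervals of regions and flanks no longer overlapped for AP-1 (above the flanks) and the SNAI E-box (below them). With any region within 100000 bp of a start counted, 36.8% of the LSD1-CoREST list had one. The share over all protein-coding genes was not computed for this distance. The share of nearest genes given above is no background for it, since the wider window counts more genes for each region. Without the regions that hold the L1 word or a MIR word (added), the median fold was 6.82 and the median GC 50%. No paired analysis was possible because each condition had 1 library. The LSD1 regions had at least 6 fragments over the summit, and a region without a GFI1 peak can still have GFI1 coverage under the calling threshold.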

Other observations

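The word search was also applied to other LSD1 peaks as a count. Of the LSD1 peaks in gene bodies without GFI1, 636 (21.3%, interval 19.8 to 22.8) held the L1 word or a MIR word, against 325 (20.8%, interval 18.8 to 22.8) of the intergenic regions and 166 (10.4%) of the promoter peaks without GFI1. The fifth word, CCTTTGCAC, was in 2.61% of the former, 2.87% of the regions, 0.811% of the promoter peaks and in 0 of the 390 LSD1 peaks with GFI1, which allows up to 0.769%. The C/EBP core was in 8.17% (interval 5.17 to 12.7) of the regions with MIR words and in 2.90% of those with neither word. These sets were made by letters at the summit, where the core was also counted, so the shares are descriptions.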
